A study of Mus musculus with 56 samples.

Results

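Metallothioneins Mt1 and Mt2 were followed in the lungs of mice with acute lung injury induced by oleic acid (OA), a fatty acid that damages the lung when it is given into the blood. The MUSV29K microarray, on which mouse cDNA clones are spotted onto nylon, carries 4 metallothionein spots, 2 named Mt1 and 2 named Mt2, among 7625 clones with a gene name and 9984 spots in all. Mt3 and Mt4 have 0 spots under their names. The clones of each gene are called brighter and dimmer here by their mean signal. Mt1 was selected on these data for its level at 3 and 4 hours in the log2 values of the OA mice, and Mt2 as the other member of its family on the membrane. The levels over time in the OA mice are therefore a description, given with no test.

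All mice were female, wild-type C57Bl/6J, 7 weeks old, and anesthetized with xylazine and ketamine. OA or physiological serum, the control fluid, was injected through the tail vein, and RNA was taken from whole lung. Lungs were taken 1, 1.5, 3, 4, 18 or 24 hours after OA, from 4, 6, 7, 4, 3 and 3 mice in that order, so that the early (1 and 1.5 hours), intermediate (3 and 4 hours) and late (18 and 24 hours) stages held 10, 11 and 6 mice. For serum there were 2, 1, 2, 2 and 1 mice at 1, 1.5, 3, 18 and 24 hours, in that order, and none at 4 hours. Anesthesia and injection were thus shared by every group, and no untouched mice were analysed here. Mouse names such as P11L2 are those of the labels, in which a number follows the letter L. The labels do not explain this number, and it is treated here as a lot that the animals may share.

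Metallothioneins are small, cysteine-rich proteins that hold zinc and copper ions and can take up oxidants. Their genes are known to be switched on by zinc through the sensor MTF1, which binds metal response elements, and also by glucocorticoids, by interleukin 6 and by oxidative stress, and in the lung they are known to rise in inflammation and after inhaled metals or excess oxygen. In the mouse Mt1 and Mt2 lie side by side and are widely expressed, whereas Mt3 is known best from brain and Mt4 from stratified epithelium.

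On build GRCm38.p6, RefSeq places Mt2 at chr8:94172618-94173567 and Mt1 at chr8:94178883-94180327, with 5315 bases between them, and Mt3 and Mt4 upstream on the same chromosome. The proximal Mt2 sequence is shown because the clones of both genes moved together. It is the plus strand of chr8:94172368-94172617, the 250 bases before the RefSeq start of the gene, with capitals on each match to the core of the metal response element.
Mt2: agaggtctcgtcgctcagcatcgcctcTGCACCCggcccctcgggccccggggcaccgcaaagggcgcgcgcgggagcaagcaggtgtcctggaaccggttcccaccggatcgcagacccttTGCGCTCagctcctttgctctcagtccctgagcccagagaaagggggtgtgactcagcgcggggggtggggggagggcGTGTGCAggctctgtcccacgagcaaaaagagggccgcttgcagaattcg
The core was searched as TGCACNC and TGCGCNC on both strands, and the 3 matches begin 223, 128 and 50 bases before the start, the last of them on the minus strand, with no overlap between them. For Mt1 the start used in the promoter table lies inside the annotated gene, so the only match in its 250 bases is shown with the bases around it, plus strand of chr8:94179055-94179084.
Mt1: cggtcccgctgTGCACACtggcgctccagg
At least 1 match was found in 7032 of 32851 RefSeq promoters of this length (21.4%). The window of Mt3 held 0 matches and that of Mt4 held 1. Most of the Mt1 window, chr8:94178839-94179088, lies inside the annotated gene, so its counts do not describe the bases before the RefSeq gene start. A core of the sites of the glucocorticoid receptor, searched as AGAACA, was in neither the Mt1 nor the Mt2 window and in 16.1% of all promoters. The core of the antioxidant response element, TGACNNNGC, was found 1 time for Mt2, 0 times for Mt1 and in 10.2% of all. These matches describe letters in a window and no binding was measured.

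The 4 clones were bright. Their mean log2 values over the OA microarrays, 10.49 and 10.12 for Mt1 and 10.72 and 10.13 for Mt2, lay at percentiles from 86.5 to 92 of the named clones and above 8.93, the 95th percentile of 1647 empty spots. Markers of the labelled tissue were present. The club and ciliated list, of whose 7 genes only Aldh1a1 and Cbr2 have clones, was at a mean log2 value of 13.27 to 13.39 over the 3 stages. Markers of alveolar type II cells were at 10.67 to 10.79. A total of 60 microarrays was made, of which 50 of 27 OA mice and 9 of 8 serum mice were used. How precise a value is was limited by the number of microarrays. For 23 OA mice hybridized on 2 microarrays, the median difference between them was 0.18 to 0.23 on the log2 scale over the 4 clones.

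Some spots stood apart before any comparison. The authors marked each spot with a quality of 0 or 1, and 3 metallothionein spots of the OA mice carried a 0. On the second microarray of P11L2, at 4 hours, the dimmer Mt1 clone read 7.69 against 11.61 on the first microarray, and the brighter Mt2 clone read 9.14 against 12.53. On the only microarray of P7L2, at 1.5 hours, the dimmer Mt1 clone read 7.03. The brighter Mt1 clone, on which the text below rests unless another is named, had no spot marked 0 on any microarray, and the dimmer Mt2 clone had none on those of the OA mice. Values are given as deposited, and without the marked spots where these change a statement.

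Mt1 was low early, high at 3 hours, higher still at 4 hours, and within its early range at 18 and 24 hours. In log2 values, the brighter Mt1 clone was at 9.17, 9.47, 10.58 and 9.50 in the 4 mice at 1 hour. At 1.5 hours the 6 mice lay between 9.52 and 10.38, with a median of 10.07. The 7 mice at 3 hours lay between 10.86 and 11.76, with a median of 11.19. None of them overlapped with the early mice, of which the highest, P3L2 at 1 hour, was at 10.58. At 4 hours the mice P11L2, P12L3, P13L3 and P4L1 were at 12.21, 11.62, 11.84 and 11.92, of which 3 lay above all 3 hours mice and 1 within their range. At 18 hours the values were 9.35, 9.38 and 9.87, and at 24 hours 9.98, 9.95 and 10.02. All late mice were thus inside the early range.

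By mean and SD the order of the time points was 4 hours (11.89 ± 0.24, n = 4), 3 hours (11.22 ± 0.33, n = 7), 1.5 hours (10.01 ± 0.32, n = 6), 24 hours (9.98 ± 0.04, n = 3), 1 hour (9.68 ± 0.62, n = 4) and 18 hours (9.53 ± 0.29, n = 3). Only the step from 3 hours down to 1.5 hours separated neighbours whose mice did not overlap. The 3 mice at 24 hours stood above the 3 at 18 hours but inside the range of those at 1.5 hours and at 1 hour. By stage the means of the brighter Mt1 clone were 9.87 ± 0.46 (SD, n = 10 early mice), 11.46 ± 0.44 (n = 11 intermediate mice) and 9.76 ± 0.31 (n = 6 late mice). The intermediate mean was 1.59 above the early one, or 3.01-fold, and 1.71 above the late one, or 3.27-fold, where the SD between mice of 1 time point was 0.36.

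**Figure D1:**
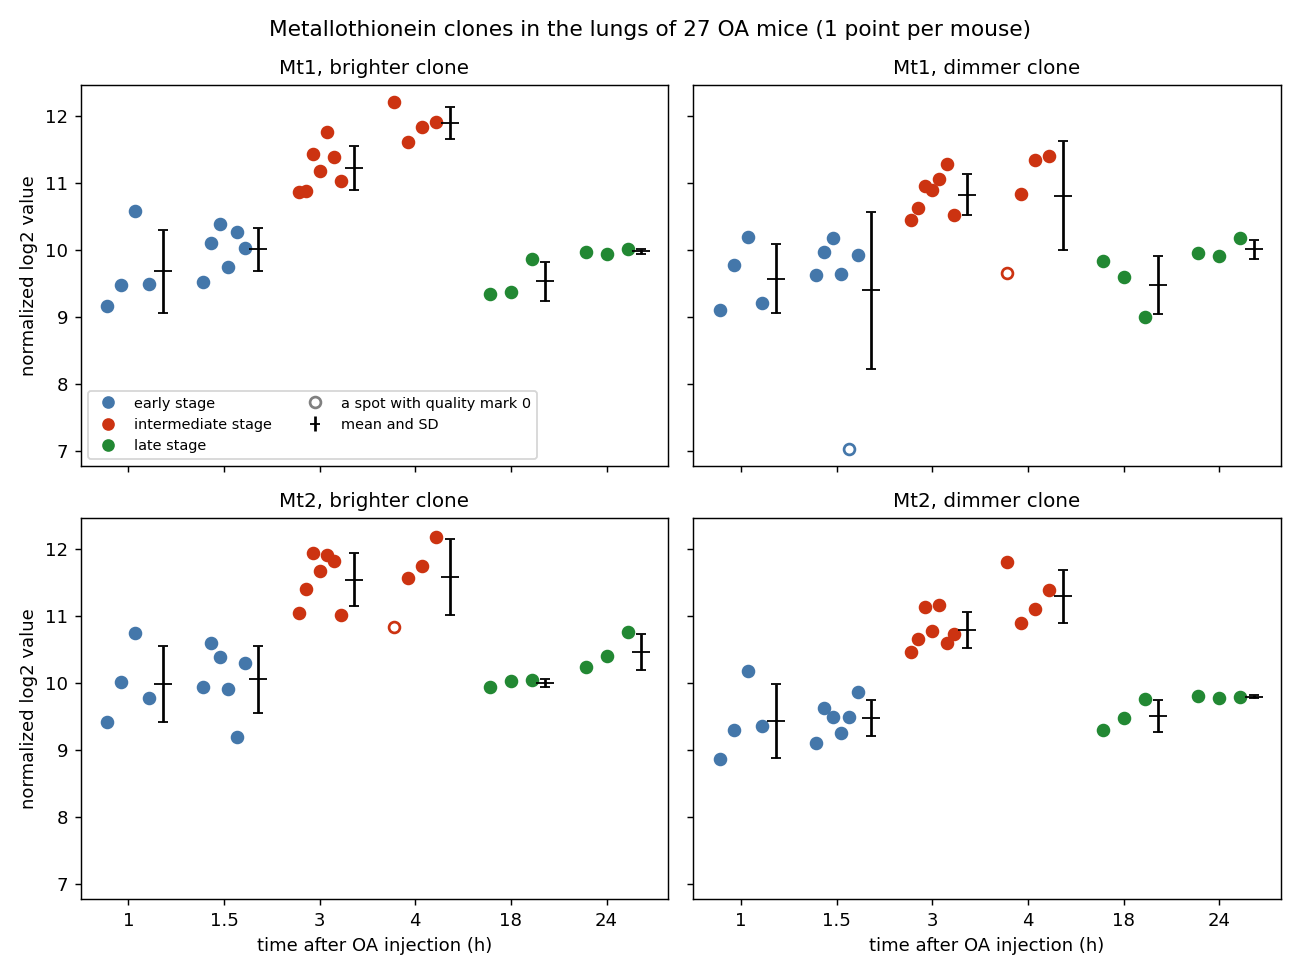
Normalized log2 value of the 4 metallothionein clones (vertical axes) in each of 27 OA mice, by time after injection in hours (horizontal axes, not to scale in time). Points are mice, coloured by stage, open points include a spot with quality mark 0, and bars give the mean and SD of a time point. In the brighter Mt1 panel all 11 intermediate mice, from 10.86 up, lie above all early and late mice, up to 10.58, and the open points are the low mice P7L2 (7.03) and P11L2 (9.65) of the dimmer Mt1 clone and P11L2 (10.84) of the brighter Mt2 clone.

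The other 3 clones were also highest at 3 and 4 hours. As deposited, only the dimmer Mt2 clone was, like the brighter Mt1 clone, more than 0.1 higher by mean at 4 than at 3 hours. The dimmer Mt1 and brighter Mt2 clones include the marked spots of P11L2 at 4 hours. Without these spots P11L2 was at 11.61 and 12.53. All 4 mice at 4 hours were then above the 3 hours mean of the clone, 10.83 and 11.55. The dimmer Mt2 clone had means of 9.43 and 9.48 at 1 and 1.5 hours, 10.79 and 11.30 at 3 and 4 hours, and 9.52 and 9.80 at 18 and 24 hours. Its 11 intermediate mice, 10.47 to 11.81, did not overlap with the others, of which the highest was at 10.19. The brighter Mt2 clone stood at 9.99 and 10.06 at 1 and 1.5 hours, 11.55 and 11.59 at 3 and 4 hours, and 10.01 and 10.47 at 18 and 24 hours. Here too the intermediate mice, from 10.84, stayed above all others, which reached 10.76 in P8L1 at 24 hours. The intermediate stage exceeded the early one by 1.52 for the dimmer and 1.53 for the brighter Mt2 clone, and the late one by 1.32 and 1.33, or between 2.495-fold and 2.89-fold. The Mt2 clones had late means 0.20 and 0.21 above the early ones, while the brighter Mt1 clone had a late mean 0.12 below. For the dimmer Mt1 clone the late mean was 0.28 above as deposited, and without the marked spots the means were 9.74 early and 9.75 late. These steps were below the SD between mice of a time point, 0.33 to 0.71 over the 4 clones.

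The dimmer Mt1 clone was the least steady, with means of 9.57, 9.39, 10.83, 10.81, 9.48 and 10.01 from 1 to 24 hours, a difference of 1.36 from early to intermediate and 1.07 from late to intermediate, and 10 of 11 intermediate mice above all others. The exception was P11L2, at 9.65. Without the marked spots that mouse was at 11.61, the 11 intermediate mice of the clone lay from 10.45 up and those of the other stages reached 10.20, and the differences were 1.26 and 1.25. P11L2 then read 12.21 and 11.61 on the Mt1 clones and 12.53 and 11.81 on the Mt2 clones, the highest OA mouse on each of them.

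Across the membrane, 5 of 7625 clones (0.0656%) had every intermediate mouse above every other OA mouse. They were the brighter Mt1 clone, both Mt2 clones, Map3k6, a kinase of stress signaling, and Fkbp5, a chaperone of the glucocorticoid receptor. The stage means of Map3k6 were 8.08, 9.58 and 7.85, and those of Fkbp5 7.91, 9.48 and 7.92, so that their early and late means lay under the empty-spot limit of 8.93. Since the metallothioneins were selected on this contrast, the count describes how rare the pattern was and supports nothing further.

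Within the possible lots the values were those of the same mice on which Mt1 was selected, and they are a description. In lot 2 the brighter Mt1 clone was at 9.88 in 6 early and 11.32 in 3 intermediate mice, and in lot 3 at 9.87 in 4 early and 11.52 in 5 intermediate mice. In lot 1, which held all late mice, it was at 11.51 in 3 intermediate and 9.76 in 6 late mice. The spread within time points was not used in the selection, and the lots took 22.5% of it (exact permutation test of lots within time points, one-sided, 201600 arrangements, p = 0.648). For the other clones the share was 30.2% to 41.0%, with exact permutation p from 0.229 to 0.613 and 0.648 for each of the 4 after Benjamini-Hochberg adjustment.

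Some mice were high or low for their time point on every metallothionein clone, and others were not. P3L2 was the highest of the 4 mice at 1 hour on every clone, at 10.58 and 10.20 on the Mt1 and 10.76 and 10.19 on the Mt2 clones. P2L2 of the same time point was the lowest on every clone, at 9.17, 9.10, 9.42 and 8.86. By contrast, P12L1 was the highest mouse at 18 hours on the brighter Mt1 clone (9.87) and the lowest on the dimmer (9.00). P7L2, at 1.5 hours, was at 10.26 on the brighter Mt1 clone and at 9.19, the lowest of its time point, on the brighter Mt2 clone. Over the 27 OA mice the brighter Mt1 and dimmer Mt2 clones had a Pearson r of 0.966, and 0.859 after the mean of each time point was taken away. The points share microarrays and their normalization, and the value is a description. The dimmer Mt1 clone had an r within time points of only 0.0503 with the brighter Mt1 clone and 0.0419 with the dimmer Mt2 clone. With the brighter Mt2 clone, marked on the same microarray of P11L2, it had 0.819. Without the marked spots these 3 values were 0.655, 0.556 and 0.792 over 26 mice, and all 6 pairs of clones lay between 0.556 and 0.859.

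**Figure D2:**
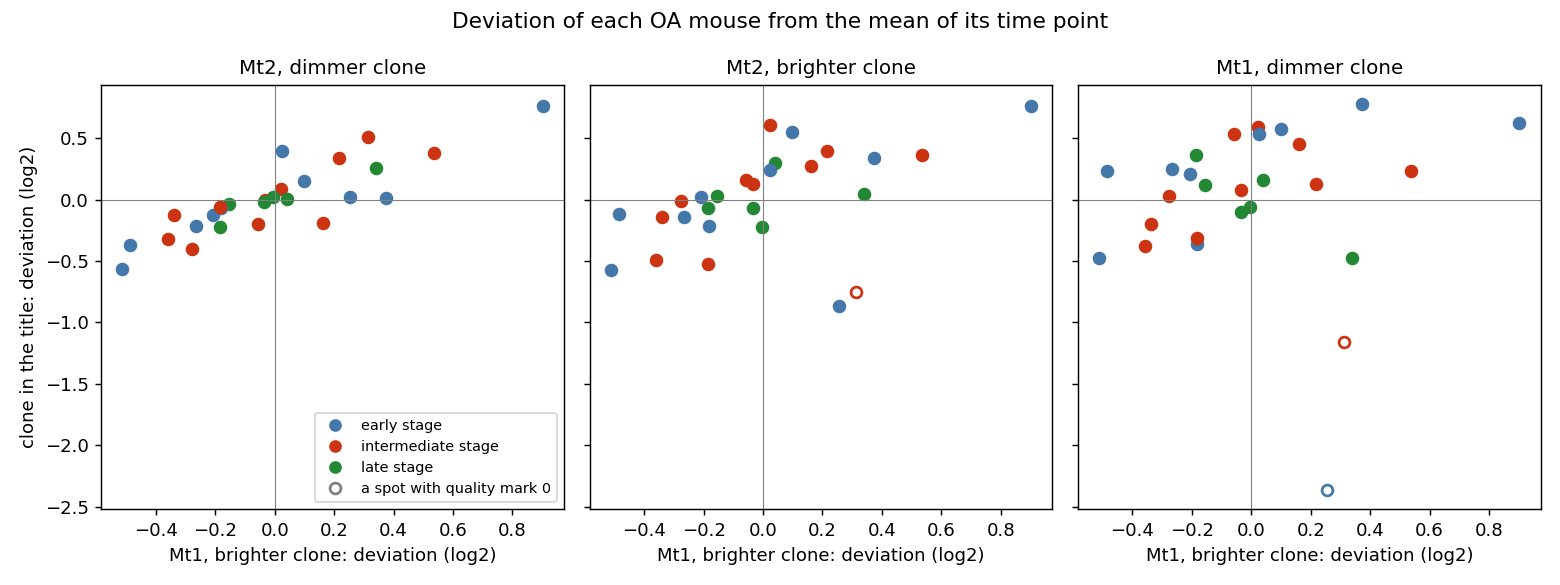
Deviation of each of 27 OA mice from the mean of its time point, in log2 units, for the brighter Mt1 clone (horizontal axes) against each of the other metallothionein clones (vertical axes). Points are mice, coloured by stage, and open points include a spot with quality mark 0. The dimmer Mt2 clone follows the diagonal (r = 0.859), and the open points lie low in the panels of the brighter Mt2 and dimmer Mt1 clones.

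Serum mice gave the level of Mt1 after the same anesthesia and injection without OA. These values come from the deposited intensities, normalized here over all 60 microarrays, and are read only against each other. Of the serum spots, 3 carried a quality mark of 0, that of the dimmer Mt1 clone at 24 hours and those of the dimmer Mt2 clone at 1.5 hours and in 1 mouse at 18 hours. In OA mice the brighter Mt1 clone was at 11.13 ± 0.34 (SD, n = 7) at 3 hours, between 10.76 and 11.68. The 2 serum mice at 3 hours were at 10.77 and 9.47. The first of them lay inside the range of the OA mice and above 1 of the 7. Its microarray was the dimmest of all, with a median log2 intensity of 5.73 against 8.39 for the other, and the part of this in its Mt1 level was not tested. At 4 hours all 4 OA mice, at 11.86 ± 0.27 (n = 4), were above each of the 8 serum mice, and 6 of the 7 were at 3 hours.

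At the other time points OA and serum mice lay closer. The serum mice were at 9.65 and 8.73 at 1 hour against OA mice from 9.05 to 10.47, of which 3 of 4 were below the higher serum mouse. The serum mouse at 1.5 hours was at 9.08, below all 6 OA mice, 9.41 to 10.28. At 18 hours serum mice at 8.66 and 9.20 faced OA mice at 9.22, 9.25 and 9.76, and at 24 hours 1 serum mouse at 9.65 faced OA mice at 9.84 to 9.92. On the brighter Mt1 clone the OA mice were thus above the serum mice of their own time at 1.5, 18 and 24 hours. At 18 hours the lowest OA mouse and the higher serum mouse were nearly level. The dimmer Mt2 clone had 0 OA mice below serum at these 3 times, and the brighter Mt2 clone had 1 of 6 below at 1.5 hours. The dimmer Mt1 clone had 2 of 6 below at 1.5 hours, among them P7L2 with its marked spot. At 18 hours it had 1 of 3 below the higher serum mouse.

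The difference of OA minus serum for the brighter Mt1 clone was 1.01 at 3 hours (standard error 0.32). It was smaller at the other times, 0.37 (0.34) and 0.82 (0.43) at 1 and 1.5 hours, and 0.48 (0.36) and 0.23 (0.46) at 18 and 24 hours. Without the first serum mouse at 3 hours the difference at that time was 1.66, and without the second it was 0.36. The mean over the 5 time points was 0.58 (standard error 0.17). For the Mt2 clones the difference at 3 hours was larger, 1.37 (0.38) for the brighter and 1.15 (0.31) for the dimmer, and none of the 7 OA mice was below the higher serum mouse, at 10.80 and 10.30. The dimmer Mt1 clone differed by 0.79 (0.52), with 2 of 7 OA mice below the serum mouse at 10.48.

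**Figure D3:**
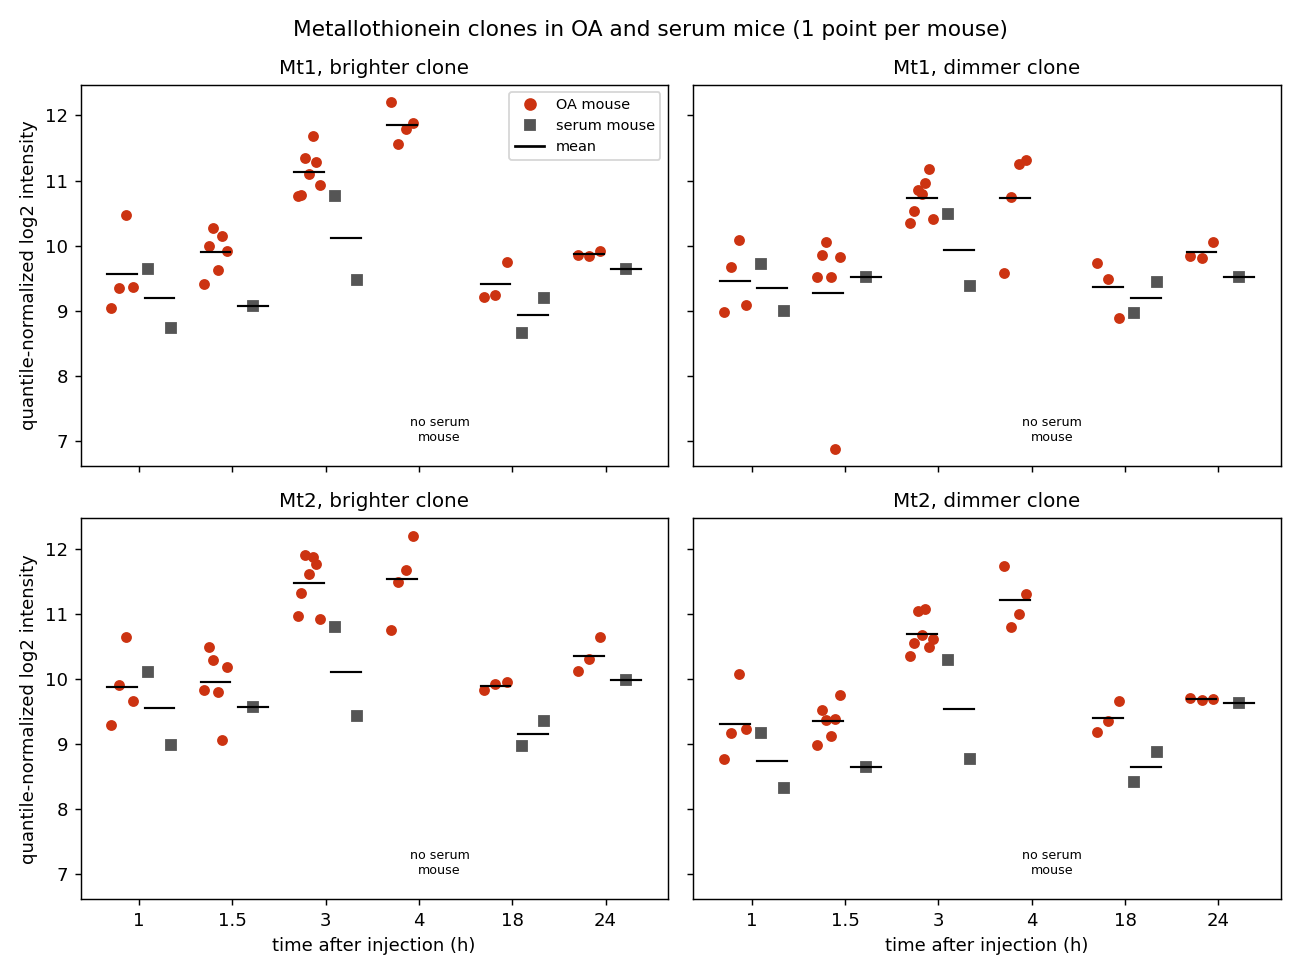
Quantile-normalized log2 intensity of the 4 metallothionein clones (vertical axes) in OA mice (circles) and serum mice (squares) by time after injection in hours (horizontal axes, not to scale in time), with the mean of each group as a line. There was no serum mouse at 4 hours. At 3 hours the higher serum mouse of the brighter Mt1 clone, at 10.77, reaches the lowest OA mice, while at 4 hours all OA mice, from 11.55, lie above every serum mouse.

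Since the serum mice were not used to select Mt1, their own time course could be tested. The 2 serum mice at 3 hours were 0.96 above the mean of the other 6 for the brighter Mt1 clone (exact permutation test, two-sided, 28 arrangements, p = 0.107, where 0.0357 is the smallest p the design allows). The other clones differed by 0.57 to 0.69, with exact permutation p of 0.214 to 0.25. No clone passed after Benjamini-Hochberg adjustment over the 4 clones (0.25 for each). All 4 differences were positive, and that of the brighter Mt1 clone was 0.31 when the serum mouse at 10.77 was left out. The dimmer Mt2 clone was also high in the serum mouse at 24 hours, at 9.63 against 8.32 to 9.17 in the serum mice at 1, 1.5 and 18 hours, next to OA mice from 9.67 to 9.71. In the authors' own serum columns the brighter Mt1 clone was at 8.75, 9.41, 8.94, 8.55 and 6.75 from 1 to 24 hours, so not highest at 3 hours. The brighter Mt2 clone was highest there at 3 hours (10.43), the dimmer Mt2 clone at 24 hours (10.08) and the dimmer Mt1 clone at both (9.42). The part of the normalization in this difference was not tested.

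Genes whose levels over the 27 OA mice were most like the brighter Mt1 clone were sought among 2834 clones above the empty-spot limit. The median r was 0.0295, and 30 clones had an r above 0.7. After the dimmer Mt2 clone (0.966), the nearest was Cdkn1a, the cell cycle inhibitor p21, with an r of 0.865 and stage means of 9.10, 10.37 and 8.56, just ahead of the brighter Mt2 clone (0.863). It was followed by Chka (0.844), choline kinase, and Nxf1 (0.830), the exporter of messenger RNA. Srxn1 (0.825) encodes sulfiredoxin, which repairs oxidized peroxiredoxins, and Slc3a2 (0.814) the heavy chain of amino acid exchangers such as the cystine carrier. Angptl4 (0.812) inhibits lipoprotein lipase, Map3k11 (0.795) is a kinase of stress signaling, and Umps (0.778) makes pyrimidine nucleotides. Most of these moved less than the metallothioneins, by 0.44 (Chka and Slc3a2) to 0.89 (Angptl4) from early to intermediate apart from Cdkn1a at 1.27. The filter used the mean over all OA microarrays. Srxn1 lay under the limit of 8.93 early and late (8.71 and 8.63), and Cdkn1a and Angptl4 did so late (8.56 and 8.71). Map3k6 (0.898) and Fkbp5 (0.809), named after their values were seen, were dimmer than the limit and not ranked.

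The clones least like Mt1 were lowest at 3 to 4 hours. Lbh, a transcriptional regulator of development, had an r of -0.843 and went from 9.41 early to 8.76 and back to 9.51 late. Arhgap29, a GTPase-activating protein, had -0.834, with 10.57, 9.95 and 10.51, and Plscr2, Exosc7 and Gimap4 had -0.720, -0.705 and -0.696. Within time points, after the dimmer Mt2 clone at 0.859, the highest values included those of Errfi1 (0.690), an inhibitor of EGF receptor signaling, Rps6ka4 (0.655), Cdkn1a (0.646), Pdzd3 (0.629), Nfkbia (0.622), the inhibitor of NF-kappa B, Trim61 (0.622), Prkaca (0.5996) and Mat2a (0.596). Other clones of the same genes were lower, at 0.56 and 0.29 for Errfi1 and 0.27 for Nfkbia. Only 1 of the bright clones, the dimmer Mt2 clone, had an r above 0.7 within time points. Cdkn1a was the only gene outside the family among the 10 highest of both rankings. This depends on the cut, as Mat2a had an r of 0.763 over the 27 mice, just under Umps.

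**Figure D4:**
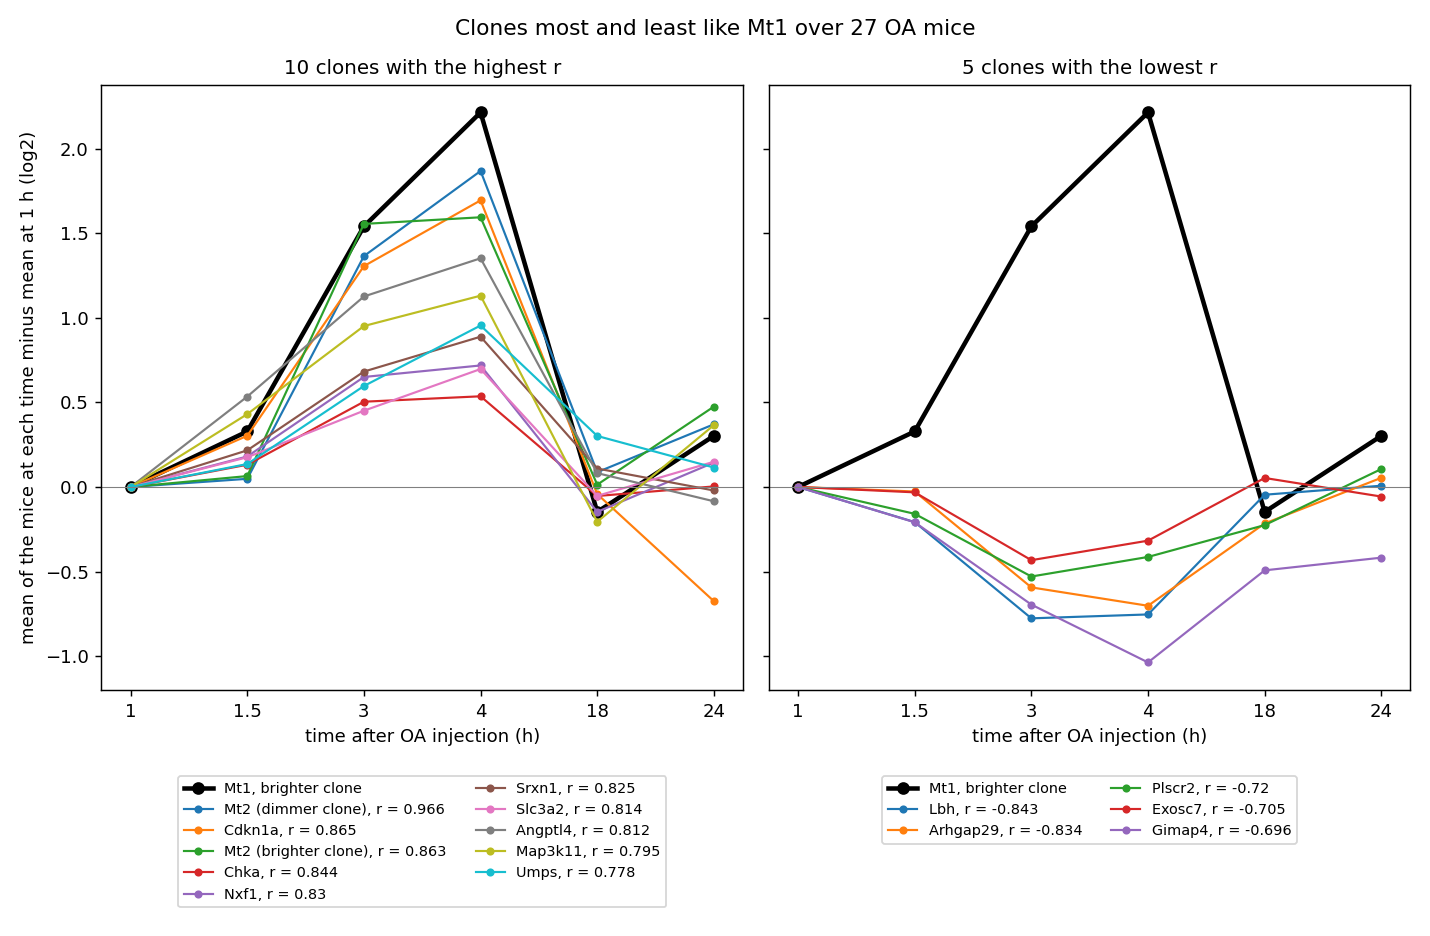
Mean of the OA mice at each time point minus the mean at 1 hour, in log2 units (vertical axes), by time in hours (horizontal axes, not to scale in time), for the brighter Mt1 clone in black with the 10 clones of highest r (left) and the 5 of lowest r (right) over 27 mice. The clones on the left are highest at 4 hours and those on the right are lowest at 3 or 4 hours, and only the Mt2 clones and Cdkn1a (1.27 from early to intermediate) come near the difference of Mt1 (1.59).

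Genes of the pathways known to act on metallothioneins were counted in the same OA mice. Over all named clones, the moderated F test of limma over the stages called 470 of 7625 (6.16%), of which 151 (1.98% of all) were highest in the intermediate stage. With the lot as a block 118 were called (1.55%), and without any 1 mouse 280 to 846, the lowest without P7L1 and the highest without P4L3. The median over all clones of the intermediate minus the early mean was -0.004, and of the intermediate minus the late mean -4e-04. The lists were drawn up with earlier results of these data known, so their counts are descriptions.

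Among 24 clones of genes that glucocorticoids induce, 6 were called and all 6 were highest in the intermediate stage. They were Map3k6 (adjusted p = 1.31e-05), Fkbp5 (2.12e-05), Cdkn1a (4.16e-05), Angptl4 (0.000149), Klf9, a transcription factor (0.00126), and Sgk, a kinase of ion transport (0.00503). Fkbp5 and Map3k6 were listed with their peak at this stage already known. The 6 were also called with the lot as a block (adjusted p up to 0.0224) and without any 1 mouse (up to 0.0135). Others of the list were not called, among them Dusp1 (10.14, 9.81 and 9.28, adjusted p = 0.053), Zbtb16 (9.12, 9.42 and 9.58, 0.715) and Txnip (11.26, 10.97 and 11.17, 0.467). The list median was 0.08 above early and 0.46 above late in the intermediate stage. The receptor Nr3c1 has no clone under its name.

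In the serum mice these 6 genes were also higher at 3 hours than at other times by 0.19 to 1.00, and none passed (exact permutation test, two-sided, p from 0.0714 to 0.571 and 0.268 or more after Benjamini-Hochberg adjustment over these 6 genes and the 4 metallothionein clones). The first serum mouse at 3 hours was above all serum mice of other times for Cdkn1a (10.42 against at most 9.22), Fkbp5 (8.72 against 8.16), Klf9 (10.62 against 10.23), Map3k6 (9.40 against 9.06) and Sgk (9.46 against 9.40), as it was for Mt1. For Cdkn1a, Map3k6, Fkbp5 and Angptl4 it lay inside the range of the OA mice at 3 hours, which was 9.11 to 10.67 for Cdkn1a and 9.20 to 9.55 for Map3k6. The second serum mouse at 3 hours was inside the range of the serum mice of other times for all 6 genes. It was at 8.80 for Cdkn1a and 8.06 for Map3k6. The microarray of the first was the dimmest of all, and the part of this in its levels was not tested.

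Of 26 clones of genes for oxidant defense, 5 were called, all highest in the intermediate stage. Srxn1 rose from 8.71 to 9.34 and was at 8.63 late (adjusted p = 3.51e-05). Gclc, the catalytic subunit of the enzyme that starts glutathione synthesis, was at 9.73, 10.57 and 9.70 (0.0142), and Gclm, its modifier subunit, at 9.76, 10.09 and 10.08 (0.0483). Keap1, the sensor that restrains the factor NRF2, was called on both clones, at 9.41, 9.81 and 9.53 (0.00448) and at 8.71, 9.08 and 8.92 (0.0194). With the lot as a block 3 of the 5 were called, and Gclm (adjusted p = 0.104) and the dimmer Keap1 clone (0.102) were not. Gclm was called in 8 of the 27 fits without 1 mouse. Hmox1, heme oxygenase and a usual companion of Mt1 in oxidative stress, was at 8.23, 8.20 and 8.28 (0.981), below the empty-spot limit, and Nfe2l2, which encodes NRF2, was not called on its clones (0.161 and 0.602). The list median was 0.10 above early and -0.08 relative to late.

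Zinc and metal handling genes gave 2 called among 21 clones. Slc39a14, a zinc importer known to rise with interleukin 6, was highest in the intermediate stage, at 7.76, 8.19 and 7.91 (adjusted p = 0.00783), on a clone below the empty-spot limit. Slc31a2, a copper transporter, was highest late, at 8.34, 8.10 and 8.49 (0.0225), also below the limit, and was not called with the lot as a block (0.11). The zinc importer Slc39a8 was at 10.91, 10.63 and 10.58 (0.304), and the zinc exporters Slc30a7 and Slc30a9 were not called (0.874 and 0.249). The sensor Mtf1 and the exporter Slc30a1, a known target of it, have no clone under their names. The list median was 0.05 above early and -0.02 relative to late.

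Of 24 clones of interleukin 6 signaling and the acute phase, 7 were called, 1 highest in the intermediate stage and 6 late. The first was Lrg1, a secreted acute phase glycoprotein (adjusted p = 0.0119). The late ones were the list members Saa3 (2.97e-06), Hpxn (6.91e-05), Fga (0.00552), Serpina3g (0.00763), C3 (0.0307) and Serpina3n (0.0317), with r to Mt1 between -0.170 and 0.284. Of the 7, only C3 was on a clone above the empty-spot limit. The hepatocyte markers Alb1, albumin, at 10.82, 11.32 and 12.42 (0.0978), and Rbp4, at 7.56, 7.46 and 8.22 (0.0954), were also highest late without being called. Cyp2e1 (0.123) and 1 clone of Apob (0.241) were highest late too. Ahsg, at 7.42, 7.44 and 7.38 (0.875), was not, and the other Apob clone was highest early (0.62). Of the Ttr clones, 1 was highest early (0.959) and 1 late (0.954). The part of hepatocyte markers in the acute phase levels was not tested. With the lot as a block, and all late mice in 1 lot, only Saa3 and Lrg1 were called (adjusted p of 0.00351 and 0.0337), C3, Fga, Hpxn, Serpina3g and Serpina3n having 0.121 to 0.942. Of the signaling genes, Socs3, which shuts the pathway off, was at 8.53, 9.03 and 8.72 (0.178). Without the 2 microarrays that hold a marked Mt1 spot, Socs3 was called (limma adjusted p = 0.012). The 4 clones of Stat3, the factor that carries the signal, had adjusted p of 0.0985 to 0.288. The receptor chains Il6ra (0.0697 and 0.176) and Il6st (0.681) were not called either. The list median in the intermediate stage was 0.23 above early and 0.03 above late.

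Against serum, over the mean of the 5 shared time points, limma called 2619 clones higher (34.3%) and 2081 lower (27.3%) in OA mice. The microarrays of the groups differed in brightness, with medians of the log2 intensity of 8.09 to 8.73 over the OA groups and of 7.00 to 7.99 over the serum groups before normalization, and the part of this in the calls was not tested. In the glucocorticoid list 5 were higher and 4 lower, and of the 6 genes above only Klf9 was called, higher by 0.76 (adjusted p = 2.18e-05). The oxidant defense list had 9 higher and 5 lower, Srxn1 among the first (0.38, 0.00024). In the metal list 5 were higher and 5 lower, and in the acute phase list 5 and 13.

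Whole lung holds many cell types, and in such samples fewer cells of a type and less RNA per cell cannot be told apart. Markers of other cells were followed over the stages for this reason. Of 6 neutrophil clones, 1 was called, S100a8, highest early at 12.00, 11.92 and 10.49 (limma adjusted p = 0.0243). S100a9 was highest in the intermediate stage, at 12.08, 12.48 and 11.28, without being called (0.0706). The neutrophil list means by stage were 9.39, 9.59 and 9.15, highest in the intermediate stage. They ranged from 8.74 to 10.28 in early, 9.15 to 9.94 in intermediate and 8.98 to 9.44 in late mice. Of 8 macrophage clones, 1 of Fcer1g was called (0.0445), highest early, and the other Fcer1g clone was not (0.235). The macrophage list means were 8.91 to 9.47, 8.62 to 9.34 and 8.78 to 8.96. Of 11 endothelial clones, Tek was called (0.0416), and of 6 alveolar type II clones, Slc34a2 (0.0305), both highest early. The means of both lists were instead highest late, at 9.64, 9.67 and 9.73 for endothelial and 10.67, 10.71 and 10.79 for alveolar type II clones. None of the 4 called clones, S100a8, Fcer1g, Tek and Slc34a2, was called with the lot as a block (adjusted p of 0.231 to 0.966). None of the 4 club and ciliated, 15 red cell and 8 hepatocyte clones was called by limma, where 0, 0 and 3 had an unadjusted p under 0.05. The list means of the intermediate mice overlapped with those of the early and late mice in all 7 lists, and the part of these cells in the level of Mt1 was not tested.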

How the data were processed

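Lung RNA was labelled with 33P by the authors and hybridized to nylon membranes, 1 sample on each of 60 microarrays. The authors quantified spots with Bzscan2 and deposited spot intensities on a linear scale, a 0 or 1 quality mark of unstated rule, and a table of log2 values that they had quantile-normalized. Per the methods, sample signals had local background and the influence of adjacent spots taken away, and whether this holds for the deposited intensities is not stated. The 51 OA columns of the log2 table gave the time course. Its 5 serum columns, 1 for each time point and of unknown composition, were quoted and entered no comparison or test. For OA against serum, the image signal at constant diameter (floor of 1, log2 scale) was quantile-normalized over all microarrays in R 4.3.3 with limma 3.58.1 and jsonlite 2.0.0. Microarrays of 1 mouse were averaged, and which serum microarrays share a mouse was taken from the study's design. The labels of 1 microarray of P7L3 name both 3 and 1.5 hours, and 3 hours was used, as on its other microarray (brighter Mt1 clone at 11.82 and 11.69). A further microarray at 1.5 hours, of no resolved mouse, was left out (9.99).

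The 3 stages entered a moderated F test in limma, and OA was compared with serum by contrasts of means fitted to every combination of treatment and time, both over 7625 named clones with Benjamini-Hochberg adjustment at 0.05. Standard errors of OA minus serum are those of this fit, in which 3 degrees of freedom come from serum mice. Fits were tested on simulated data. Named were all metallothionein clones, the 10 clones of highest and 5 of lowest r, the 10 of highest r within time points, of which 1 is not reported here, and list members that were called or are a receptor, sensor or defining marker. Members and lists were chosen with earlier results of these data known. Promoters and positions are from RefSeq. The clone sequences were not used here, so which part of each transcript a clone holds, and whether Mt1 clones also bind Mt2 cDNA, was not tested. Figures were drawn with matplotlib 3.10.9 in Python 3.11.15.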

Additional observations from a re-analysis of the deposited data

Results flagged for a closer look

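The dimmer Mt1 clone in P7L2, an OA mouse at 1.5 hours with 1 microarray, was at 7.03 in log2 value, apart from the other 5 mice of the time point, which lay between 9.63 and 10.17. Its gap to the nearest mouse was 0.826 of the whole range, above Dixon's critical value. The spot carried the authors' quality mark of 0, while the brighter Mt1 and dimmer Mt2 clones of the same microarray were at 10.26 and 9.50, inside the range of their groups. The brighter Mt2 clone, with a mark of 1, was at 9.19, the lowest of the time point, where the next mouse was at 9.91. It was the 1 value that stood apart among 16 groups of 4 to 7 mice tested, where chance gives about 1 in 20.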

How the results depend on the processing

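For the brighter Mt1 clone, the intermediate mean stayed above the early and late means in every alternative run. Without any 1 mouse the differences were 1.51 to 1.67 and 1.63 to 1.77. They were smaller with the serum means subtracted, at 0.64 and 0.92, since the serum mice at 3 hours, 1 of them high, then stand for 3 and 4 hours. The dimmer Mt1 clone, chosen as an alternative after seeing the data, gave 1.07 against the late stage. At 3 hours OA minus serum was 1.40 with the fitted spot signal, and 0.36 to 1.66 without 1 mouse, and its mean over 5 time points was 0.45 to 0.71 without 1 mouse, 0.38 with microarrays centred on their median and 0.24 for the dimmer Mt1 clone. That last value includes the marked spots of P7L2 at 1.5 hours and of the serum mouse at 24 hours. The serum mice at 3 hours against the others gave 0.31 to 1.60 without 1 mouse, with exact permutation p of 0.0952 to 0.714, and the lots took 17.5% to 36.6%, with exact permutation p of 0.377 to 0.797. Clones called across the stages numbered 118 with the lot as a block, in which early and late mice share no lot, and 280 to 846 without 1 mouse, the lowest without P7L1 and the highest without P4L3, and 286 without P8L1. Without the 2 microarrays that hold a marked Mt1 spot, chosen after seeing the data, 409 clones were called. Among them were 8 of the glucocorticoid, 7 of the acute phase and 4 of the oxidant defense list. Socs3 was then called (limma adjusted p = 0.012), while Gclm, Lrg1, Slc34a2, Tek and Fcer1g had adjusted p of 0.0606 to 0.0885 in limma. Of the list genes named as called, Slc31a2, C3, Serpina3n, Gclm, Slc34a2, Tek, S100a8 and Fcer1g lost the call without some 1 mouse and kept it in 8 (Gclm) to 26 (Slc31a2) of the 27 fits. Clones called between OA and serum numbered 1631 among those above the empty-spot limit, where fewer were tested, and 4510 to 4697 without 1 serum mouse. Of the 10 clones most like Mt1, 1 was shared when the dimmer Mt1 clone was used and 8 when its marked spots were also left out, both alternatives chosen after seeing the data. No paired analysis was possible because the number after P recurs within a time point (P2L2 and P2L3 at 1 hour) and names a mouse only together with its lot, which is the block used above. Every serum level rests on 1 or 2 mice.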
